A study of Mus musculus with 15 samples.

Results

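The 10 genes described here, Hopx, Gdf10, Fabp7, Ptprz1, Gjb6, Aldh1l1, Slc6a11, S100b, Sox9 and Timp4, mark Bergmann glia and resting astrocytes of the cerebellum. They were taken by gene symbol from count tables that list 24421 genes, and all 10 had enough counts to be tested, as did 15843 genes in all. RNA of whole mouse cerebellum was sequenced in 15 libraries, 5 of each of 3 genotypes on the FVB strain. The wild type was FVB without a transgene. Pcp2-ATXN1[82Q] carries human ATXN1 with a tract of 82 glutamines, the kind of expansion that causes spinocerebellar ataxia type 1. Pcp2-ATXN1[82Q]V591A;S602D, called the substituted genotype below, has the same tract and the amino acid changes V591A and S602D, which are known to weaken the binding of ATXN1 to the repressor CIC. The Pcp2 promoter is active in Purkinje cells, so neither transgene is meant to be made in the glial cells whose genes are described. The age of the mice is not given in the sources used here, and the level of the human transgene was not analysed here. Nothing in the labels ties a library to its own animal, so the p-values measure the spread between libraries. In bulk tissue, fewer cells of a type and less RNA per cell cannot be told apart.

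Bergmann glia are the radial astrocytes of the cerebellar cortex. Their cell bodies lie among the Purkinje cells and their processes ensheathe the Purkinje cell synapses, where they take up glutamate and GABA and buffer potassium. Other astrocytes lie in the granule cell layer and the white matter. Hopx encodes a small homeodomain protein that does not bind DNA, Ptprz1 a receptor tyrosine phosphatase, and Timp4 an inhibitor of matrix metalloproteases. Gjb6 encodes the gap junction protein connexin 30, Aldh1l1 the folate enzyme 10-formyltetrahydrofolate dehydrogenase, and Slc6a11 the GABA transporter GAT-3. S100b encodes a calcium-binding protein, Sox9 a transcription factor of glial identity, Gdf10 a secreted ligand of the TGF-beta family, and Fabp7 the brain lipid-binding protein.

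The start regions of the 6 genes that differed between genotypes are shown first, because CIC, the partner of ATXN1, recognises short DNA words of known letters. RefSeq promoter windows on GRCm38.p6, from 250 bases before to 50 bases after a gene's start, were found for 9 of the 10 genes, with 10 windows in all since Hopx has a pair of starts. Both strands were searched for the CIC words TGAATGAA and TGAATGGA, which share their first 6 letters, the SOX core ACAAT, the nuclear factor I half-site TTGGC and the ROR half-site AGGTCA. Capitals mark the matches to any of these, or to their reverse complement, in the windows below, read 5′ to 3′ on the strand of the gene, and no matches overlap. The windows are Hopx start 1 (chr5:77115074-77115373, minus strand), Hopx start 2 (chr5:77095218-77095517, minus strand), Ptprz1 (chr6:22875252-22875551, plus strand), Timp4 (chr6:115252156-115252455, minus strand), Gjb6 (chr14:57133562-57133861, minus strand), Aldh1l1 (chr6:90550543-90550842, plus strand) and Slc6a11 (chr6:114130991-114131290, plus strand).
Hopx start 1: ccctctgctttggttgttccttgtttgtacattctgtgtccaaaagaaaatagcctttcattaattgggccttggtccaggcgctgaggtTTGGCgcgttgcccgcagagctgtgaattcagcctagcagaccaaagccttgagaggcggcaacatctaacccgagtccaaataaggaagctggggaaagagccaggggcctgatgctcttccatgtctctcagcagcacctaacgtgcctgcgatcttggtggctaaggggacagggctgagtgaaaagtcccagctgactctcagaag
Hopx start 2: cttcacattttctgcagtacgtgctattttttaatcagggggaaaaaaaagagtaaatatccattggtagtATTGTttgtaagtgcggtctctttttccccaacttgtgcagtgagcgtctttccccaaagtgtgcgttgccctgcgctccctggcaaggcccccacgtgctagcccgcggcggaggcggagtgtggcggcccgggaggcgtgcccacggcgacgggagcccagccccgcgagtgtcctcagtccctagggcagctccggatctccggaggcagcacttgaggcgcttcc
Ptprz1: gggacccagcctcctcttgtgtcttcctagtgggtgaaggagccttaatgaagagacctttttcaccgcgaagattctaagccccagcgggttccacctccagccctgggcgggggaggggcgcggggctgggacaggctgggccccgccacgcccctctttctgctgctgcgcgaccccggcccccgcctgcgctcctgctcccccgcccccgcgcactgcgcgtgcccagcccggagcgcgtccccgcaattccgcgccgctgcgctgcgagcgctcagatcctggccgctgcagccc
Timp4: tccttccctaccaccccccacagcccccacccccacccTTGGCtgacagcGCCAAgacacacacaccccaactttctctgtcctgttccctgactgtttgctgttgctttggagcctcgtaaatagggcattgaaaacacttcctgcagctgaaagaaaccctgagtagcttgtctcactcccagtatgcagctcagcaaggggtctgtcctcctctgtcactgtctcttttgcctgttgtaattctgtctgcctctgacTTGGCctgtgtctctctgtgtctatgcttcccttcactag
Gjb6: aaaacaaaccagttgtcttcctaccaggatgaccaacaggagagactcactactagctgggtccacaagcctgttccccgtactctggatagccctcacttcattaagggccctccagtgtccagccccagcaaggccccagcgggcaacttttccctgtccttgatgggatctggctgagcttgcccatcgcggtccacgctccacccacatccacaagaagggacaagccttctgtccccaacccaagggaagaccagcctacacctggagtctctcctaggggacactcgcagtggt
Aldh1l1: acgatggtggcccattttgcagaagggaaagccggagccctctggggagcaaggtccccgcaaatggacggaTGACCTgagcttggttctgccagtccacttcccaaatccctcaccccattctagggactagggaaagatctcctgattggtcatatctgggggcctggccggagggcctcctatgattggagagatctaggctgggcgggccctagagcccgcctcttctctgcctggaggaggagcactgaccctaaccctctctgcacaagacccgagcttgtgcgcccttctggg
Slc6a11: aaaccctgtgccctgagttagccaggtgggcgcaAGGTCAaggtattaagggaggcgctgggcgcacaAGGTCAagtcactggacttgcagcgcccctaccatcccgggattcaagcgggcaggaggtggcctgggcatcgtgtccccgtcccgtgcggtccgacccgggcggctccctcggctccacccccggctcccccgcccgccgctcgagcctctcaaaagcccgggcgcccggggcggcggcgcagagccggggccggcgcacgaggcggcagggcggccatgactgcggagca

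None of the 10 windows held either CIC word, which occur in 1.3% and 1.21% of 32851 RefSeq mouse promoter windows of the same length. That says only that these letters are not in these 300 bases. TTGGC, found in 46.7% of all windows, lay 3 times in the window of Timp4, 4 times in that of S100b, and once each in those of Hopx start 1, Gdf10 and Fabp7. AGGTCA, found in 16.3%, lay in the windows of Slc6a11, at positions -216 and -182 from the start, Aldh1l1 and Fabp7. ACAAT, found in 31.0%, lay in those of Hopx start 2 and Fabp7. The windows of Gjb6 and Ptprz1 held none of the words. The Aldh1l1 window is placed on a RefSeq start that lies within the longer GENCODE gene. The windows also differed in base composition. Gdf10 (77.3% G and C, 42 CpG), Slc6a11 (72.3%, 32 CpG) and Ptprz1 (71.7%, 29 CpG) lay far above the median of all windows (52.7%, 7 CpG). Timp4 (53.3%, 2 CpG) and S100b (53.7%, 3 CpG) had few CpG, and Gjb6 (57.3%, 6 CpG) was near the median in CpG.

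On GRCm38 (GENCODE M21) the genes lie on chromosomes 5, 6, 10, 11 and 14, and 4 of them, Ptprz1, Aldh1l1, Slc6a11 and Timp4, are on chromosome 6. Some share sequence with other genes. Hopx (chr5:77086988-77115121, minus strand) shares 412 bp, 27.2% of its exon length, with the antisense gene Hopxos. Aldh1l1 (chr6:90486427-90600203, plus strand) shares 499 bp with the antisense gene Gm15756 and 105 bp with the lincRNA Gm45901. Timp4 (chr6:115241892-115252205, minus strand) lies inside the neuronal gene Syn2 on the other strand, with 90 bp of shared exon. No source used here gives the strand setting of the counting, and reads in those stretches cannot be assigned to one gene with certainty. Counts of Syn2 did not pass the test between ATXN1[82Q] and wild type (log2 fold change -0.016, edgeR adjusted p = 0.775).

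The total counts on genes ran from 36467948 to 42818401 per library, and each of the 10 genes had at least 606 counts in every library. Defining astrocyte genes were well expressed: scaled to exon length, the wild-type level was 205 ± 11.03 CPM (counts scaled to library size) per kb for the glutamate transporter gene Slc1a3 and 70.1 ± 3.51 for the water channel gene Aqp4 (mean ± SD, n = 5, as for all values in this form). Some libraries stood apart in the tissue they held. Ttr, a choroid plexus transcript, was under 100 CPM in 7 libraries and at 1090.3 CPM or more in the other 8, in all 3 genotypes. Replicates 2 and 5 of ATXN1[82Q] had more transcript of brainstem neurons: the mean of 10 tested markers was 1.503 and 2.45 log2 units above the wild-type mean, against 0.022 to 0.43 in the other 3 ATXN1[82Q] libraries, -0.46 to 0.52 in wild type and -0.24 to 0.84 in the substituted genotype. Xist, which is transcribed in females, was at 1055.6 to 1468 CPM in 2 libraries of each genotype and at 0.188 to 0.878 CPM in the others.

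In wild type the length-scaled level spanned a wide range. S100b was highest at 488 ± 38.3 CPM per kb, then Hopx at 99.8 ± 2.45 and Gdf10 at 43.9 ± 4.64, and the libraries of these 3 genes did not overlap in level. From Gdf10 downward each gene overlapped the next in level: Gjb6 at 33.2 ± 3.27, Ptprz1 at 31.5 ± 2.71, Timp4 at 27.0 ± 1.13, Fabp7 at 23.8 ± 5.33, Aldh1l1 at 18.2 ± 1.07, Slc6a11 at 14.98 ± 3.64 and Sox9 at 9.15 ± 0.444 CPM per kb. In ATXN1[82Q] the upper and lower ends of the order were as in wild type, with S100b and Hopx at the top and Sox9 at the bottom. Gjb6 (45.5 ± 2.18 CPM per kb) stood level with Gdf10 (45.4 ± 1.83) there, and Slc6a11 (25.1 ± 8.27) was the sixth. With the substituted genotype the first 6 places were as in wild type. The summed level of the 10 genes overlapped between genotypes, at 1956 to 2072 CPM per wild-type library, 1942 to 2066 in ATXN1[82Q] and 1939 to 2027 in the substituted genotype. That sum is weighted to the abundant genes: in wild type S100b gave 724 ± 56.8 CPM and Fabp7 29.8 ± 6.66. It therefore says little of the less abundant genes.

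**Figure D1:**
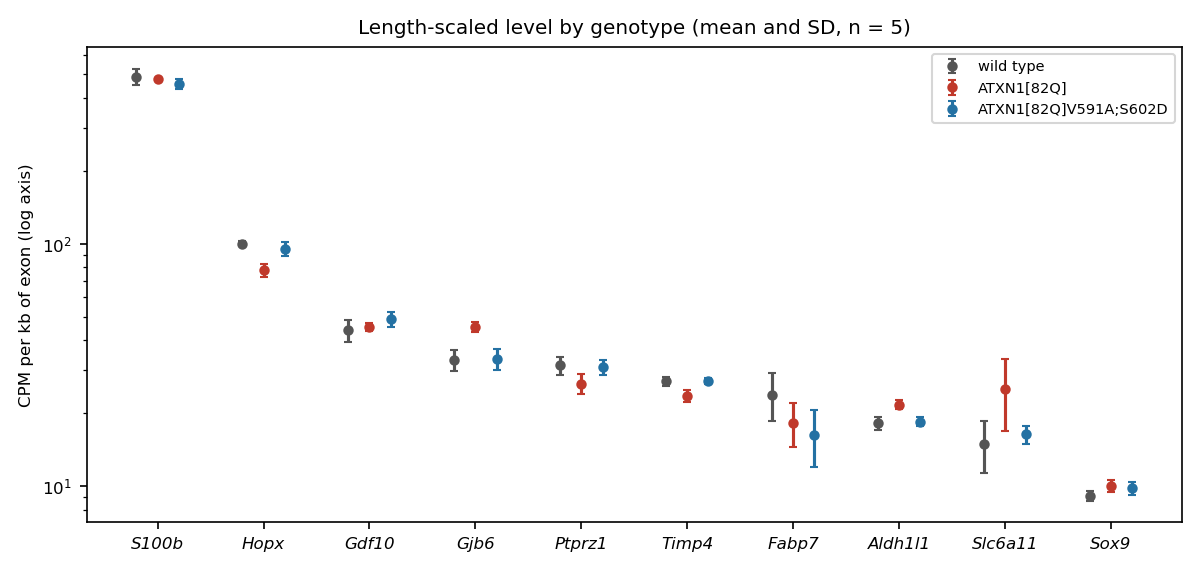
Level of each gene in CPM per kb of exon (vertical log axis), ordered by the wild-type level, with 1 point per genotype (mean, bars SD, n = 5). S100b lies far above the rest in each genotype, and the points of ATXN1[82Q] stand apart from the other genotypes at Hopx (lower) and Gjb6 (higher).

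The first comparison asks what the ATXN1[82Q] transgene in Purkinje cells goes with in the glial genes. Here the 10 genes split. Gjb6, Aldh1l1 and Slc6a11 rose by 1.196-fold to 1.68-fold, Hopx, Ptprz1 and Timp4 fell by 1.15-fold to 1.28-fold, and Gdf10, Fabp7, S100b and Sox9 did not pass the test (edgeR quasi-likelihood test, Benjamini-Hochberg adjusted p under 0.05 over all tested genes). That is 6 of 10 called, beside 31.3% of all genes tested, 16.4% higher and 14.9% lower. The median log2 fold change of the 10 genes was 0.0073, against 0.0069 over all genes. Values of the genotypes did not overlap for 4 of the 10, Gjb6, Aldh1l1 and Slc6a11 above and Hopx below wild type, beside 19.2% of all genes.

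**Figure D2:**
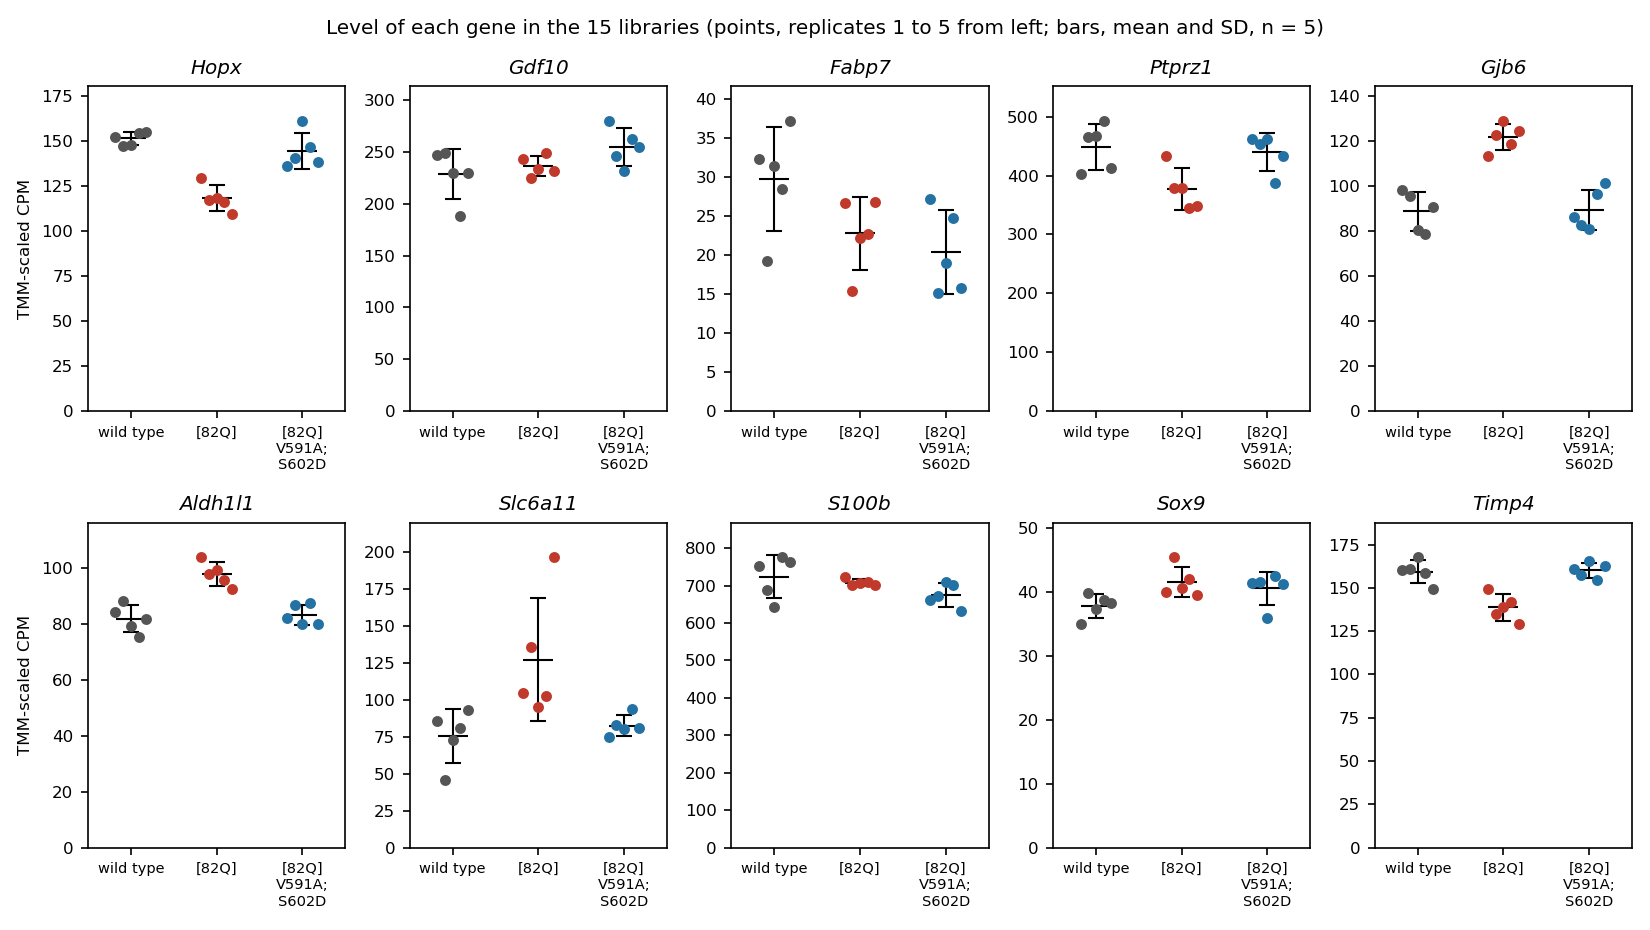
TMM-scaled CPM (vertical axes, from 0) of each gene in every library, replicates 1 to 5 from left within each genotype, with mean and SD (n = 5). All ATXN1[82Q] libraries lie above the other genotypes for Gjb6, Aldh1l1 and Slc6a11 and below them for Hopx, while the genotypes intermix for Gdf10, Fabp7 and S100b.

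Of the genes that fell, Hopx had the most even wild-type values, 152, 147, 148, 154 and 155 CPM in replicates 1 to 5. In ATXN1[82Q] it read 129, 117, 119, 116 and 109 CPM, and in the substituted genotype 136, 141, 161, 147 and 138 CPM. Every ATXN1[82Q] library lay below every library of the other genotypes. The mean went from 151 ± 3.72 to 118 ± 7.21 CPM, a 1.28-fold fall (edgeR log2 fold change -0.36, SE 0.0456, 95% interval -0.45 to -0.26, adjusted p = 8.12e-06).

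Ptprz1 read 403, 466, 467, 493 and 413 CPM in wild type. Its ATXN1[82Q] values were 433, 379, 378, 344 and 349 CPM and its values in the substituted genotype 463, 454, 463, 386.8 and 433 CPM. Here the genotypes overlapped, since replicate 1 of ATXN1[82Q] lay among the wild-type values and the other 4 libraries below them. Ptprz1 fell 1.19-fold (edgeR log2 fold change -0.25, SE 0.0688, 95% interval -0.40 to -0.11, adjusted p = 0.00969). With the brainstem marker mean as a covariate its log2 fold change was -0.16 (edgeR adjusted p = 0.108), and without the 2 libraries with brainstem transcript it was -0.22 (edgeR adjusted p = 0.0609).

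Timp4 had wild-type values of 160.1, 161, 168, 158 and 149 CPM. They were 149, 135, 139, 142 and 129 CPM in ATXN1[82Q] and 161, 157, 165, 155 and 163 CPM in the substituted genotype. The highest ATXN1[82Q] library just passed the lowest wild-type one, and all ATXN1[82Q] libraries lay below the substituted genotype. Timp4 fell 1.15-fold, from 159 ± 6.66 to 139 ± 7.70 CPM (edgeR log2 fold change -0.20, SE 0.0382, 95% interval -0.28 to -0.12, adjusted p = 0.000607).

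Among the genes that rose, Gjb6 stood at 98.2, 95.5, 80.5, 78.7 and 90.5 CPM in wild type. ATXN1[82Q] gave 114, 123, 129, 119 and 124 CPM and the substituted genotype 86.0, 82.5, 81.0, 96.4 and 101.3 CPM. All ATXN1[82Q] libraries lay above all others, and the other genotypes intermixed. Gjb6 rose 1.37-fold, from 88.7 ± 8.75 to 122 ± 5.83 CPM (edgeR log2 fold change 0.46, SE 0.0696, 95% interval 0.31 to 0.60, adjusted p = 0.000103).

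Aldh1l1 read 84.5, 88.3, 79.5, 75.6 and 82.0 CPM in wild type. In ATXN1[82Q] the values were 104, 98.1, 99.5, 95.9 and 92.5 CPM and in the substituted genotype 82.3, 87.0, 80.2, 87.5 and 80.0 CPM. Again no ATXN1[82Q] library overlapped the other genotypes. The rise was 1.196-fold, from 82.0 ± 4.82 to 98.0 ± 4.27 CPM (edgeR log2 fold change 0.26, SE 0.0431, 95% interval 0.17 to 0.35, adjusted p = 0.000161).

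Slc6a11 showed the largest fold change of the 10 genes, and the widest relative spread within wild type and within ATXN1[82Q]. Wild-type libraries held 85.5, 45.6, 72.9, 80.9 and 93.4 CPM, ATXN1[82Q] libraries 105, 136, 95.3, 103 and 196 CPM and the substituted genotype 74.8, 83.0, 80.1, 93.6 and 81.2 CPM. Replicates 5 and 2 of ATXN1[82Q] were the highest of all 15, replicate 2 of wild type was the lowest, and the lowest ATXN1[82Q] library still exceeded the highest wild-type one. The 1.68-fold rise passed the test (edgeR log2 fold change 0.75, SE 0.217, 95% interval 0.28 to 1.22, adjusted p = 0.0199). The highest brainstem marker means of all 15 were in the same replicates 2 and 5. Without them the log2 fold change was 0.41 (edgeR adjusted p = 0.122), with the brainstem marker mean as a covariate 0.33 (edgeR adjusted p = 0.0665), and among libraries with Ttr under 100 CPM 0.59 (edgeR adjusted p = 0.211). In a fit of the ATXN1[82Q] and wild-type libraries alone the edgeR adjusted p was 0.0636. Of 20 brainstem markers, 10 could be tested and 4 were higher in ATXN1[82Q], and all 20 together had a summed level of 157 to 204 CPM in wild type, 177 to 328 in ATXN1[82Q] and 181 to 202 in the substituted genotype, with none at 0 in every library of a genotype. The 5 wild-type libraries ranked alike in Slc6a11 and in the brainstem marker mean, from replicate 2 (-0.46) to replicate 5 (0.52). In the substituted genotype replicate 4 was the highest in both (93.6 CPM and 0.84). The lowest there was replicate 1 in Slc6a11 but replicate 5 in the brainstem marker mean. The part of brainstem tissue in the Slc6a11 result beyond these fits was not tested.

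**Figure D3:**
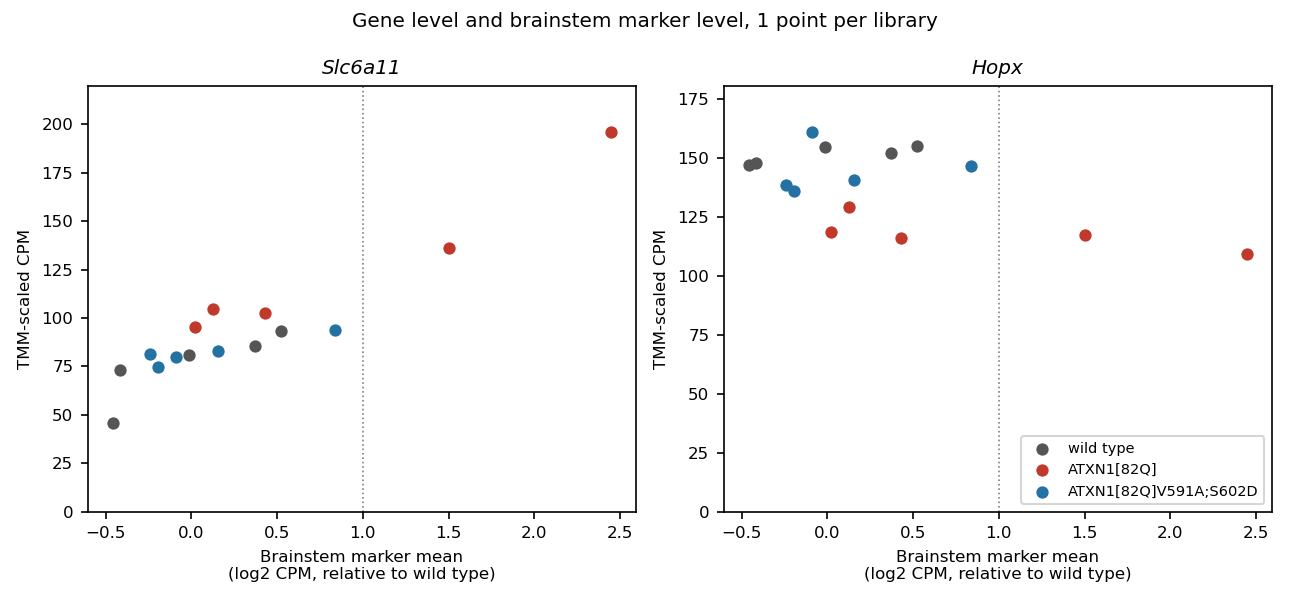
TMM-scaled CPM (vertical axes, from 0) of Slc6a11 and Hopx against the mean of 10 brainstem markers in log2 CPM relative to wild type, 1 point per library, with a dotted line at 1. The 2 ATXN1[82Q] libraries right of the line hold the highest Slc6a11 values, 136 and 196 CPM, whereas all ATXN1[82Q] libraries are low in Hopx, 109 to 129 CPM.

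The fall of Hopx and the rise of Gjb6 were nearly as large without the brainstem libraries, with log2 fold changes of -0.32 (edgeR adjusted p = 0.000159) and 0.44 (edgeR adjusted p = 0.00221). Aldh1l1 was at 0.28 (edgeR adjusted p = 0.00062) and Timp4 at -0.15 (edgeR adjusted p = 0.00915) in that fit.

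Of the genes that did not pass, Sox9 came nearest. Its values were 35.0, 39.9, 37.3, 38.7 and 38.3 CPM in wild type, 40.1, 45.4, 40.6, 42.1 and 39.5 CPM in ATXN1[82Q] and 41.5, 41.5, 36.0, 42.6 and 41.3 CPM in the substituted genotype. The ATXN1[82Q] and wild-type libraries overlapped by a narrow margin (edgeR log2 fold change 0.13, SE 0.0514, 95% interval 0.027 to 0.24, adjusted p = 0.0534). Without wild-type replicate 2 the edgeR adjusted p was 0.0453, and without ATXN1[82Q] replicate 5 it was 0.04. Fabp7 varied widely within genotypes, with 32.4, 19.3, 31.5, 28.6 and 37.2 CPM in wild type and 26.7, 15.4, 22.3, 22.8 and 26.9 CPM in ATXN1[82Q]. The libraries of both genotypes overlapped, and the interval of the Fabp7 difference was wide (edgeR log2 fold change -0.39, SE 0.212, 95% interval -0.84 to 0.072, adjusted p = 0.189). Gdf10 ranged from 189 to 249 CPM in wild type and from 225 to 249 CPM in ATXN1[82Q], with a log2 fold change of 0.047 (95% interval -0.087 to 0.18, edgeR adjusted p = 0.614). S100b, the gene with the highest length-scaled level, ranged from 642 to 775 and from 701 to 722 CPM, with a log2 fold change of -0.032 (95% interval -0.13 to 0.070, edgeR adjusted p = 0.651). Its ATXN1[82Q] libraries agreed to within a coefficient of variation of 1.198%, the smallest of any gene and genotype here, and Slc6a11 in ATXN1[82Q] had the largest, 32.9%.

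The second comparison sets the substituted genotype against wild type. None of the 10 genes passed the edgeR test, beside 1.36% of all genes tested, 0.202% higher and 1.16% lower. Without adjustment, 2 had a p under 0.05, Gdf10 higher and Fabp7 lower, and DESeq2 called 0. No gene had values that did not overlap, beside 3.16% of all genes. The median log2 fold change was 0.010, against 0.0059 over all genes.

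Among these values, Gdf10 read 280.1, 246, 232, 263 and 255 CPM in the substituted genotype and 247, 249, 230.1, 189 and 229 CPM in wild type, a log2 fold change of 0.16 (95% interval 0.022 to 0.29, edgeR adjusted p = 0.34). The wild-type libraries spread more widely, replicate 4 being the lowest of all 15. Fabp7 read 27.2, 15.2, 19.0, 24.8 and 15.7 CPM in the substituted genotype, below its wild-type mean of 29.8 ± 6.66 CPM in all 5 libraries (log2 fold change -0.55, 95% interval -1.01 to -0.089, edgeR adjusted p = 0.329). Of the 6 genes called in ATXN1[82Q], 5 had narrow intervals around 0 here. The 95% interval of the log2 fold change was -0.16 to 0.029 for Hopx, -0.072 to 0.088 for Timp4, -0.066 to 0.12 for Aldh1l1, -0.14 to 0.16 for Gjb6 and -0.17 to 0.12 for Ptprz1. For Slc6a11 it was -0.35 to 0.60, the widest of the 10. S100b (-0.20 to 0.0019) and Sox9 (-0.0069 to 0.21) had intervals that barely took in 0.

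The third comparison tests the difference between the transgenes directly, and it shares its libraries with the first and the second, as those share the wild type. Gjb6, Aldh1l1 and Slc6a11 were higher and Hopx, Ptprz1 and Timp4 lower in ATXN1[82Q] than in the substituted genotype, 6 of 10 beside 28.1% of all genes tested, 13.4% higher and 14.6% lower. The median log2 fold change was 0.051, against 0.0057 over all genes. Values did not overlap for 5 of the 10, Timp4 joining the 4 named above, beside 17.9% of all genes. The log2 fold change was 0.44 for Gjb6 (SE 0.0695, edgeR adjusted p = 0.00023), 0.23 for Aldh1l1 (SE 0.0431, edgeR adjusted p = 0.000657) and -0.29 for Hopx (SE 0.0456, edgeR adjusted p = 0.000147). For Timp4 it was -0.21 (SE 0.0382, edgeR adjusted p = 0.000659). These 4 genes thus differed between the transgenes in the same direction as from wild type. Among libraries with Ttr under 100 CPM alone, 2 per transgene, Aldh1l1 was the 1 gene of the 10 still called. Calls over all genes also fell in that fit, from 4447 to 1658. The edgeR adjusted p there was 0.062 for Timp4, 0.0962 for Hopx, 0.103 for Gjb6, 0.237 for Ptprz1 and 0.513 for Slc6a11.

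Ptprz1 and Slc6a11 passed less firmly. Ptprz1 was lower by a log2 fold change of -0.22 (SE 0.0688, edgeR adjusted p = 0.0218), and lost its call without ATXN1[82Q] replicate 4 or 5 (edgeR adjusted p = 0.0599 and 0.0642) or without replicate 1 or 3 of the substituted genotype (edgeR adjusted p = 0.0532 and 0.0558). It was also lost without the brainstem libraries (edgeR adjusted p = 0.109) and with the brainstem covariate (edgeR adjusted p = 0.155). Slc6a11 was higher by 0.62 (SE 0.216, edgeR adjusted p = 0.0488), and its call was lost in 14 of 20 alternative fits, with edgeR adjusted p up to 0.513. Leaving out ATXN1[82Q] replicate 5 alone lowered that log2 fold change to 0.41 (edgeR adjusted p = 0.116). Gdf10, Fabp7, S100b and Sox9 did not pass, with 95% intervals of -0.24 to 0.025, -0.30 to 0.63, -0.034 to 0.17 and -0.074 to 0.14 on the log2 scale.

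**Figure D4:**
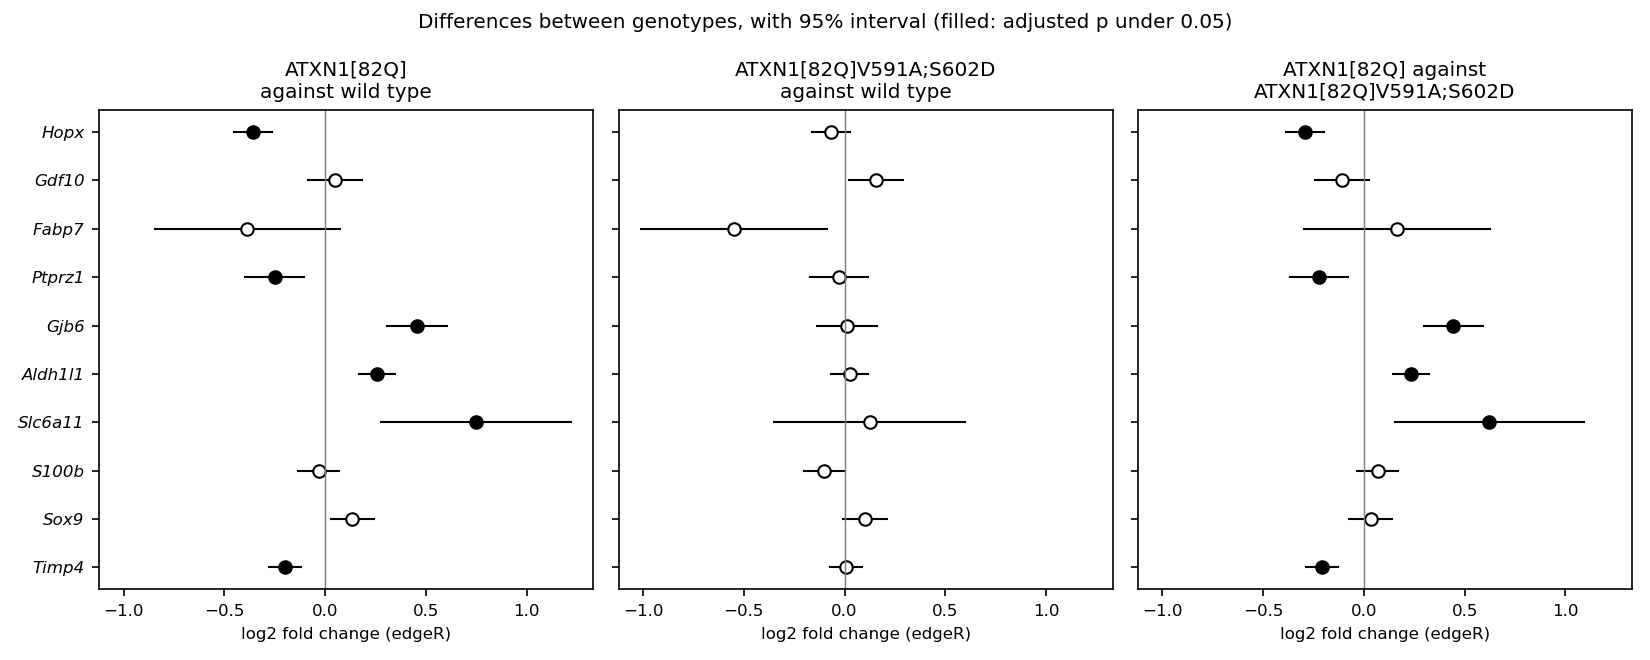
Log2 fold change of each gene (horizontal axis) in the 3 comparisons, points with 95% intervals, filled where the edgeR adjusted p is under 0.05. The 6 called genes are filled in both comparisons of ATXN1[82Q], on the same side of 0, and none in the substituted genotype against wild type.

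Genes of the same family or pathway were read beside each of the 10. Beside the counts of each list, 16.4% of all genes tested were called higher and 14.9% lower in ATXN1[82Q] against wild type. In the substituted genotype against wild type the shares were 0.202% and 1.16%, and between the transgenes 13.4% and 14.6%. Among 6 glial connexin genes, Gjb6 included, 4 rose in ATXN1[82Q] against wild type and 0 fell (median log2 fold change 0.41). Gja1, which encodes connexin 43, the main partner of connexin 30 in astrocytes, read 278, 241, 266, 264 and 277 CPM in wild type and 407, 366, 400.2, 353 and 383 CPM in ATXN1[82Q]. The groups did not overlap, and Gja1 rose 1.44-fold (log2 fold change 0.53, SE 0.0474, edgeR adjusted p = 1.19e-07). Gjb2, which encodes connexin 26 and lies 18600 bp from Gjb6 on chromosome 14, rose 1.49-fold at a lower level, from 13.5 ± 1.85 to 20.1 ± 1.25 CPM (edgeR adjusted p = 0.000158). Gjb1, the other gene that rose, encodes the oligodendrocyte connexin 32 (log2 fold change 0.36, edgeR adjusted p = 0.0101). Gjb1 lost its call without the brainstem libraries (edgeR adjusted p = 0.0934). In the substituted genotype 0 of 6 passed with edgeR, 0 reached an unadjusted p under 0.05, and DESeq2 called 0.

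Of 10 genes of GABA uptake and breakdown, Slc6a11 included, 6 rose in ATXN1[82Q] and 0 fell (median log2 fold change 0.23). Among libraries with Ttr under 100 CPM 3 were higher, at a similar median of 0.24. Slc6a13, the gene of GAT-2, which is known from meninges and vessels, rose 1.63-fold (edgeR adjusted p = 0.00492), and lost its call among libraries with Ttr under 100 CPM (edgeR adjusted p = 0.102). Maob, which encodes monoamine oxidase B of astrocytes, rose 1.36-fold (edgeR adjusted p = 2.73e-05). All 10 of 10 meningeal fibroblast markers were higher in ATXN1[82Q] (median log2 fold change 0.74). Among libraries with Ttr under 100 CPM 5 of 10 were called, though the median was no smaller (0.91). Their summed levels were 994 to 1760 CPM in wild type, 2017 to 2649 in ATXN1[82Q] and 1099 to 2060 in the substituted genotype. The part of meningeal tissue in the values of Slc6a13, of the connexin genes Gjb2 and Gjb6, and of Timp3 below was not tested.

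Ptprz1 binds the secreted factors pleiotrophin and midkine and the matrix protein tenascin-C. Among 12 ligands and binding partners 3 rose and 2 fell in ATXN1[82Q] (median log2 fold change 0.018). Tnc, the tenascin-C gene, read 30.0, 34.6, 31.6, 40.9 and 27.0 CPM in wild type, 9.22, 6.34, 5.07, 6.31 and 4.90 CPM in ATXN1[82Q] and 19.0, 25.9, 33.6, 18.8 and 27.6 CPM in the substituted genotype. The ATXN1[82Q] values lay far below both others, and Tnc fell 5.17-fold (log2 fold change -2.37, SE 0.205, edgeR adjusted p = 1.43e-06). Mdk, the midkine gene, rose 1.34-fold (edgeR adjusted p = 5.62e-06), Ptn, the pleiotrophin gene, passed at 1.15-fold (edgeR adjusted p = 0.0374) but not in 7 of 20 alternative fits, where the adjusted p reached 0.095, and the contactin gene Cntn1 did not pass (log2 fold change -0.032, 95% interval -0.11 to 0.047).

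The other Timp genes rose where Timp4 fell. Timp3 rose 1.46-fold in ATXN1[82Q], from 149 ± 21.8 to 217 ± 13.1 CPM (edgeR adjusted p = 0.000194), Timp1 1.99-fold from a low 1.11 ± 0.218 CPM (edgeR adjusted p = 0.000475) and Timp2 1.69-fold (edgeR adjusted p = 0.0173). Timp2 lost its call without the brainstem libraries (edgeR adjusted p = 0.0958). Among 19 metalloprotease and inhibitor genes, Timp4 and its host gene Syn2 included, 8 rose and 4 fell (median log2 fold change 0.025), with 5 higher without the brainstem libraries.

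**Figure D5:**
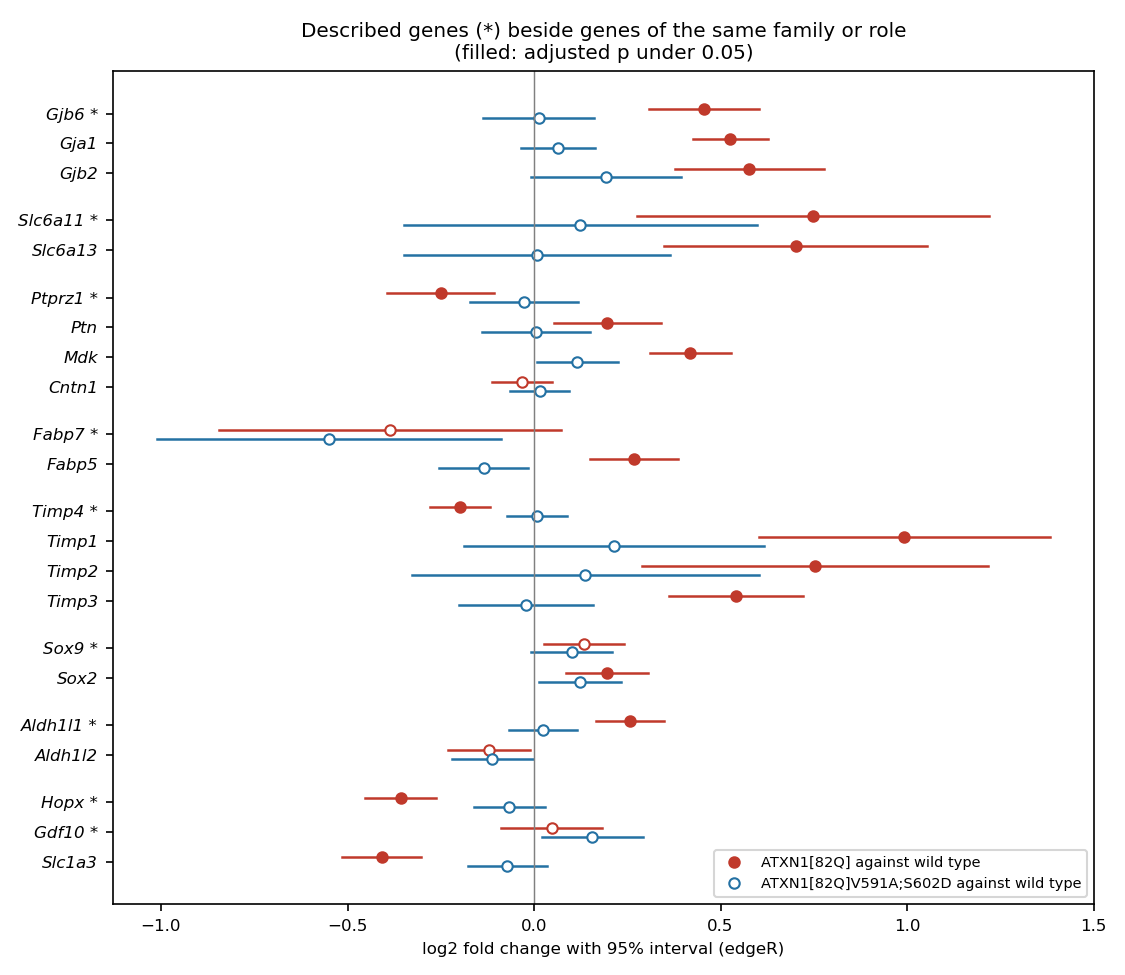
Log2 fold change with 95% interval (horizontal axis, edgeR) of described genes, marked with an asterisk, and of genes of the same family or role, for ATXN1[82Q] (red) and the substituted genotype (blue) against wild type, filled where the adjusted p is under 0.05. Gjb6 lies on the same side of 0 as Gja1 and Gjb2, Timp4 lies on the other side of 0 from Timp1, Timp2 and Timp3, and no gene shown is filled in blue.

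Of the remaining families, the folate genes had counts that did not exceed the shares over all genes. Fabp5, which encodes another fatty acid-binding protein, rose 1.204-fold in ATXN1[82Q] (edgeR adjusted p = 0.00135), and of 17 fatty acid-binding and lipid transport genes, Fabp7 included, 9 rose and 2 fell (median log2 fold change 0.20), with the lipoprotein gene Apoe at 0.68 (edgeR adjusted p = 2.76e-08). Sox2, a transcription factor gene of glia and progenitors, rose 1.15-fold (edgeR adjusted p = 0.00779), and of 26 glial transcription factor genes, Sox9 included, 9 rose and 2 fell (median 0.082). Rfx4, a transcription factor gene of astrocytes, rose and Etv4, an ETS factor gene and known CIC target, fell (log2 fold changes 0.29 and -0.75, edgeR adjusted p = 0.00058 and 4.26e-06). Aldh1l2, the mitochondrial counterpart of Aldh1l1, did not pass (log2 fold change -0.12, edgeR adjusted p = 0.0845), and of 20 folate genes tested, Aldh1l1 included, 3 rose and 2 fell (median 0.057), or 1 and 1 without the brainstem libraries, with Shmt1, which encodes the cytosolic serine hydroxymethyltransferase, at -0.40 (edgeR adjusted p = 0.00367). Of 11 S100 genes tested, 5 rose and 0 fell (median 0.30), S100a1 1.37-fold (edgeR adjusted p = 3.68e-08), while S100b did not pass. Of 30 tested genes of TGF-beta family ligands, receptors and SMADs, Gdf10 included, 9 rose and 5 fell (median 0.032), or 5 and 3 among libraries with Ttr under 100 CPM. The receptor genes Tgfbr2 and Bmpr1b rose (log2 fold changes 0.62 and 0.49, edgeR adjusted p = 4.93e-06 and 1.3e-05). Gdf11, a ligand gene, and Id2, a target gene, fell in ATXN1[82Q] (log2 fold changes -0.67 and -0.88, edgeR adjusted p = 2.96e-05 and 5.32e-08) and also in the substituted genotype against wild type (-0.53 and -0.37, edgeR adjusted p = 0.00526 and 0.00673). Among libraries with Ttr under 100 CPM the second call of Gdf11 was lost (edgeR adjusted p = 0.0512).

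A wider set of 42 other Bergmann glia and astrocyte genes also went both ways. In ATXN1[82Q] against wild type 19 rose and 8 fell (median log2 fold change 0.15), and the 8 became 5 without the brainstem libraries and 3 with the brainstem covariate. Aqp4 rose 1.498-fold (edgeR adjusted p = 1.24e-07) and Pla2g7, a gene of a phospholipase that inactivates platelet-activating factor, 1.46-fold (edgeR adjusted p = 1.92e-08). Slc1a3, the glutamate transporter gene of Bergmann glia, fell with Hopx: its values were 1692, 1893, 1758, 1763 and 1644 CPM in wild type and 1447, 1246, 1351, 1326 and 1219 CPM in ATXN1[82Q], without overlap (log2 fold change -0.41, SE 0.0507, edgeR adjusted p = 5.67e-06). Against the substituted genotype 19 were higher and 7 lower, or 10 and 4 among libraries with Ttr under 100 CPM. In the substituted genotype against wild type 0 of the 42 passed with edgeR, 3 higher and 1 lower reached an unadjusted p under 0.05, and DESeq2 called 1. Of 22 reactive astrocyte genes tested, 15 rose and 1 fell in ATXN1[82Q] (median 0.61), Gfap, the intermediate filament gene of reactive astrocytes, 3.12-fold (edgeR adjusted p = 7.05e-09), and in the substituted genotype edgeR called 0 higher and 1 lower. There 4 were higher at an unadjusted p under 0.05 and DESeq2 called 2 higher. Gfap had a log2 fold change of 0.36 (95% interval 0.16 to 0.55, edgeR adjusted p = 0.0813) in the substituted genotype and C4b, a complement gene, 0.32 (95% interval 0.13 to 0.51, edgeR adjusted p = 0.107), with values of C4b that did not overlap wild type. The gene called lower in both was H2-D1, of antigen presentation (log2 fold changes -0.66 and -0.24, edgeR adjusted p = 7.5e-08 and 0.0304). Its call in the substituted genotype was lost in 10 of 20 alternative fits, among them the fit of the compared genotypes alone (edgeR adjusted p = 0.0732).

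Markers of other cells also differed between genotypes, and their part in the values above was not tested. Of 24 Purkinje cell markers 22 fell in ATXN1[82Q], where their summed level was 7003 to 8031 CPM against 14220 to 15870 in wild type and 10920 to 13970 in the substituted genotype. Against wild type 12 of the 24 also fell in the substituted genotype (median log2 fold change -0.24, against -0.84 in ATXN1[82Q]). Of 17 granule cell markers 14 fell, with sums of 6661 to 7252 CPM against 8490 to 9815 in wild type, and 9 granule markers were called without the brainstem libraries and 8 with the brainstem covariate. All 17 of 17 microglia markers rose, with sums of 388.1 to 434.4 CPM against 209 to 244 in wild type. Of 14 oligodendrocyte markers 6 rose, with sums of 7660 to 9652 CPM against 5247 to 7725, and of 8 precursor markers, which are known to share Ptprz1 expression with Bergmann glia, 5 rose, with sums of 186 to 229 CPM against 141 to 176. Without the brainstem libraries 3 oligodendrocyte and 3 precursor markers were called, and with the brainstem covariate 2 and 2. No marker of these lists was at 0 in every library of a genotype.

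For each of the 6 genes that passed, the genes with the most similar log2 CPM profile over the 15 libraries, centred on wild type, were found among the 12028 genes whose log2 CPM averaged 2 or more. The root mean square difference was 0.067 for Apip and 0.068 for Usp46 from Hopx, 0.051 for A230046K03Rik and 0.054 for Slc8a1 from Ptprz1, and 0.034 for Arel1 and 0.035 for Uvrag from Timp4. It was 0.066 for Pld1 and 0.093 for Sdc4 from Gjb6, and 0.053 for Vcl and 0.057 for Sfxn5 from Aldh1l1. Slc6a11 had no close match: Chrna4 and Scn3b, which encode subunits of a nicotinic receptor and of sodium channels, were nearest at 0.14 and 0.15.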

How the data were processed

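Gene counts of 15 libraries of mouse cerebellum were used as deposited. Per the labels' protocols, cDNA was made from 10 ng of total RNA with poly(A) and random priming, sheared to about 400 bp and read on a HiSeq sequencer. Per the submitters' processing notes, the tools included STAR 2.5.3a, HTSeq and DESeq2 and the build was mm10. The deposited counts are whole numbers per gene symbol, not normalised, and the sources used here name no annotation, counting mode or strand setting. Reads that fell in no gene (16.8% to 18.2%), were ambiguous (1.18% to 1.25%) or aligned to several places (12.8% to 14.6%) were left out, so genes with close copies or overlaps may lose counts.

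Groups came from the genotype labels. All 15 libraries entered one edgeR 4.0.16 quasi-likelihood fit (R 4.3.3, robust) with a mean per genotype, TMM factors of 0.968 to 1.04 and low counts removed by filterByExpr (minimum 10), and p-values were Benjamini-Hochberg adjusted over 15843 genes, with calls under 0.05. CPM are TMM-scaled, and CPM per kb divide by the exon union of GENCODE M21. SE were derived from the edgeR log2 fold change and its quasi-likelihood F statistic, since the test gives none itself. The 95% intervals use that SE and a t quantile. Fold changes use no pseudocount beyond edgeR's default. The fit was tested on simulated counts that held no tissue differences between libraries, so the effect of such differences was not tested that way. Libraries differed by more than sampling noise (chi-square per degree of freedom 5.71 to 41.1), and the common biological coefficient of variation was 0.102. The cDNA was amplified and carries no molecular identifiers, so depth alone overstates the precision. The 10 genes, the other gene lists and the rule for named genes (the 10 genes, set partners of theirs, up to 4 called genes per list with the smallest adjusted p, and the 2 nearest profiles) were chosen with earlier results of these data known. Alternative fits used a replicate block, the compared genotypes alone, DESeq2 1.42.0, RLE scaling, all genes unfiltered, covariates for Ttr, Xist and the brainstem marker mean, only libraries with Ttr under 100 CPM, no libraries with a brainstem mean above 1, and each library left out in turn. Some genes of the lists are not reported here by name. Figures were drawn with Python 3.11.15 and matplotlib 3.10.9.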

Additional observations from a re-analysis of the deposited data

Results flagged for a closer look

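Sox9 in replicate 3 of the substituted genotype read 36.01 CPM, far below the nearest other library of that genotype at 41.33 CPM. The gap took 0.812 of the range of the 5 libraries, above Dixon's limit for that number of values. Of 30 sets of gene and genotype tested, 1 was marked in this way, where chance alone marks about 1 in 20. The cause was not tested. Without that library the Sox9 difference between ATXN1[82Q] and the substituted genotype was -0.0067 on the log2 scale in place of 0.034, and neither passed the edgeR test.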

How the results depend on the processing

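Of 600 refitted values of the 10 genes, 548 kept their direction and side of the threshold, 30 lost a call, 4 gained one and 18, none of them called, changed sign. Hopx, Gjb6, Aldh1l1 and Timp4 were called against wild type in ATXN1[82Q] in all 20 alternatives. With 1 library left out, 6 to 7 of the 10 genes were called in ATXN1[82Q] against wild type, 0 in the substituted genotype and 4 to 6 between the transgenes, and all genes called numbered 3883 to 5318, 132 to 318 and 3477 to 4644. The 215 genes called in the substituted genotype against wild type became 430 with DESeq2, 137 without wild-type replicate 2, and 132 and 137 without replicates 2 and 4 of that genotype. Between the transgenes the 4447 genes called became 1658 with Ttr under 100 CPM only, where 1 of the 10 genes was called with fewer libraries in the fit, and 2768 with the brainstem covariate, for which the cause was not tested. No label pairs the libraries that share a number, so they were not treated as pairs. Their deviations correlated above 0.1 in 4 of 15 cases (median -0.109). With a replicate block 8, 0 and 5 of the 10 genes and 4664, 179 and 4162 of all genes were called. Fabp7 (edgeR adjusted p = 0.0402) and Sox9 (0.0409) were gained against wild type. Sign changes with Ttr under 100 CPM only gave log2 fold changes of 0.022 for S100b in ATXN1[82Q] against wild type, -0.0089 for Aldh1l1 and -0.016 for Timp4 in the substituted genotype, and -0.031 for Sox9 between the transgenes, and Ttr as a covariate gave 0.019 for Ptprz1 in the substituted genotype. The leave-one-out ranges that crossed 0 were -0.016 to 0.078 for Gdf10 in ATXN1[82Q] against wild type, -0.063 to 0.016 for Ptprz1, -0.037 to 0.051 for Gjb6, -0.0033 to 0.053 for Aldh1l1, -0.012 to 0.21 for Slc6a11 and -0.015 to 0.027 for Timp4 in the substituted genotype against wild type, and -0.0067 to 0.056 for Sox9 between the transgenes. RLE and DESeq2 scaling moved the median of all genes by at most 0.0031 on the log2 scale. Fabp7 had the fewest counts of the 10 genes, 606 to 1479 per library.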

Other observations

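Among the other Bergmann glia and astrocyte genes, the hedgehog receptor gene Ptch1 and the hedgehog-driven transcription factor gene Gli1, both chosen after their values were seen, were lower in ATXN1[82Q]. Bergmann glia are known to respond to sonic hedgehog made by Purkinje cells, and its part in these 2 genes was not tested. Ptch1 read 109, 146, 150.3, 115 and 126 CPM in wild type, 95.8, 112, 98.4, 81.8 and 98.6 CPM in ATXN1[82Q] and 157, 134, 138, 129 and 151 CPM in the substituted genotype. ATXN1[82Q] overlapped wild type but not the substituted genotype, and the log2 fold change was -0.41 against wild type (edgeR adjusted p = 0.00602) and -0.54 against the substituted genotype (edgeR adjusted p = 0.00113). With the brainstem marker mean as a covariate the Ptch1 call against wild type was lost (edgeR adjusted p = 0.0503). Gli1 went from 26.0 ± 4.66 to 20.4 ± 2.32 CPM (log2 fold change -0.35, edgeR adjusted p = 0.0306), called in 12 of 20 alternative fits, with an edgeR adjusted p of up to 0.136 among libraries with Ttr under 100 CPM. In the substituted genotype against wild type neither passed, with 95% intervals of -0.072 to 0.35 for Ptch1 and -0.30 to 0.19 for Gli1.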
